A study of Mus musculus with 2 samples.

Results

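The JAK and STAT signalling genes were 9 genes chosen by name, the kinases Jak1, Jak2, Jak3 and Tyk2 and the transcription factors Stat3, Stat4, Stat5a, Stat5b and Stat6, out of 27597 gene names on the arrays and 9931 genes tested. All 9 were tested. The groups were CD8+ T cells of Bcl11bF/F/dLck-iCre mice, in which Cre made under a distal Lck promoter removes the zinc-finger factor Bcl11b from T cells, and CD8+ T cells of wild type mice. Both groups were infected with Listeria monocytogenes-OVA, a bacterium carrying the ovalbumin antigen, and taken at day 6 after infection by negative selection to a high stated purity. Each of 2 arrays held deficient RNA in Cy5 (red) and wild-type RNA in Cy3 (green) from 1 biological replicate. The labels used here give neither the ages nor the number of mice per replicate.

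Cytokine receptors have no kinase activity of their own. They carry Janus kinases (JAKs) on their inner tails, and a bound cytokine brings the kinases together so that they phosphorylate the receptor and then STAT proteins, which pair, enter the nucleus and bind DNA at GAS elements. In CD8+ T cells, interleukin-2, interleukin-7 and interleukin-15 act through JAK1 and JAK3 on STAT5, interleukin-12 through TYK2 and JAK2 on STAT4, and interleukin-21 and interleukin-6 mainly on STAT3. Suppressors of cytokine signalling (SOCS proteins) are made in answer to STATs and shut the kinases down.

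Of the gene spots, 26.0% and 31.1% were well above background for deficient RNA on replicates 1 and 2, and 32.4% and 28.9% for wild-type RNA. Negative control spots had a median intensity of 968 and 707 in the deficient channel and 326 and 406 in the wild-type channel, so a dim spot can be read only against these levels. Dye and genotype cannot be told apart, because both arrays had the same orientation. All ratios below are log2 of deficient over wild-type signal, given for replicate 1 and then replicate 2. Bcl11b, the deleted gene, had -0.69 and -2.95 and fell (mean -1.82 ± 1.60, SD, n = 2, limma adjusted p = 6.48e-04), with the smaller difference on replicate 1; it passed in 7 of 12 alternative ways of processing the arrays. Which exons are lost in these mice is not given in the labels, so a probe outside them would check nothing.

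Markers of other cells differed between the groups. Of 14 T-cell markers, all measured, 7 fell and all 14 lay below 0, their median being -1.20 (-1.11 and -1.43 on the separate arrays). Their summed normalized signal was 107661 and 74545 in deficient cells and 189056 and 219509 in wild-type cells. Cd8b1 (-1.10 ± 0.54) and Cd3d (-0.88 ± 0.89), which define the labelled cells, were well above background in both groups without passing, and Cd6 fell (-2.56 ± 1.43). Of 16 macrophage markers 14 were measured and all 14 rose, with a median of 3.24, among them Apoe (3.91 ± 0.29), Hmox1 (3.25 ± 0.15) and Ctsb (3.24 ± 0.30). Their sum was 292572 and 224547 in deficient cells and 28171 and 22745 in wild-type cells, and the defining markers Mertk and Mrc1 were too dim to be tested. Of 6 measured B-cell markers 5 rose (median 1.74; sums 117430 and 209865 in deficient and 47068 and 34097 in wild-type cells), led in brightness by Cd74, H2-Ab1 and Cd79b, while Cd79a, Cr2, Fcer2a, Blk, Pax5 and Ebf1 were too dim. Medians in the remaining lists were 1.13 for neutrophils (3 of 7 rose), 1.44 for erythroid cells (4 of 4), 1.86 for dendritic cells (3 of 4), 0.82 for NK cells (1 of 3) and 0.92 for plasma cells (1 of 3 rose and 1 fell). Fewer cells of a type and less RNA per cell cannot be told apart in these bulk samples, and the part of other cells in the results below was not tested.

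Among the 9 genes, Jak3 was called lower in deficient cells and none of the others passed in either direction. Jak3 entered the test only through its wild-type signal, the group where it is high, so its call describes the difference and supports nothing further. One lower gene of 9 stands beside 5.95% of all genes tested that were called lower, and 0 of 9 beside 3.74% called higher (9.69% in either direction). Apart from Jak3, the mean log2 ratios ran from -0.78 for Stat5b to 0.90 for Tyk2. The median of the 9 was -0.37, against -0.11 over all genes tested, and 6 of 9 lay below 0, against 5595 of 9931. The signs matched between arrays for 8 of the 9, Jak2 being the exception. The fit gave every gene the same standard error of 0.42, so a call amounts to a mean beyond 1.18 on the log2 scale, and every 95% interval is the mean plus or minus 0.82. A gene's own spread between arrays, printed here as SD, enters neither its p nor its interval. Taken array by array, Jak2 and Jak3 were more than 2-fold lower on replicate 1 (21.5% of all genes were) and Stat3 more than 2-fold higher (7.68%). On replicate 2 it was Jak3 lower (2.52%) and Tyk2 higher (6.4%). Jak3 was the 1 member beyond 2-fold in the same direction on both arrays (1.86% of genes lower, 2.6% higher).

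**Figure D1:**
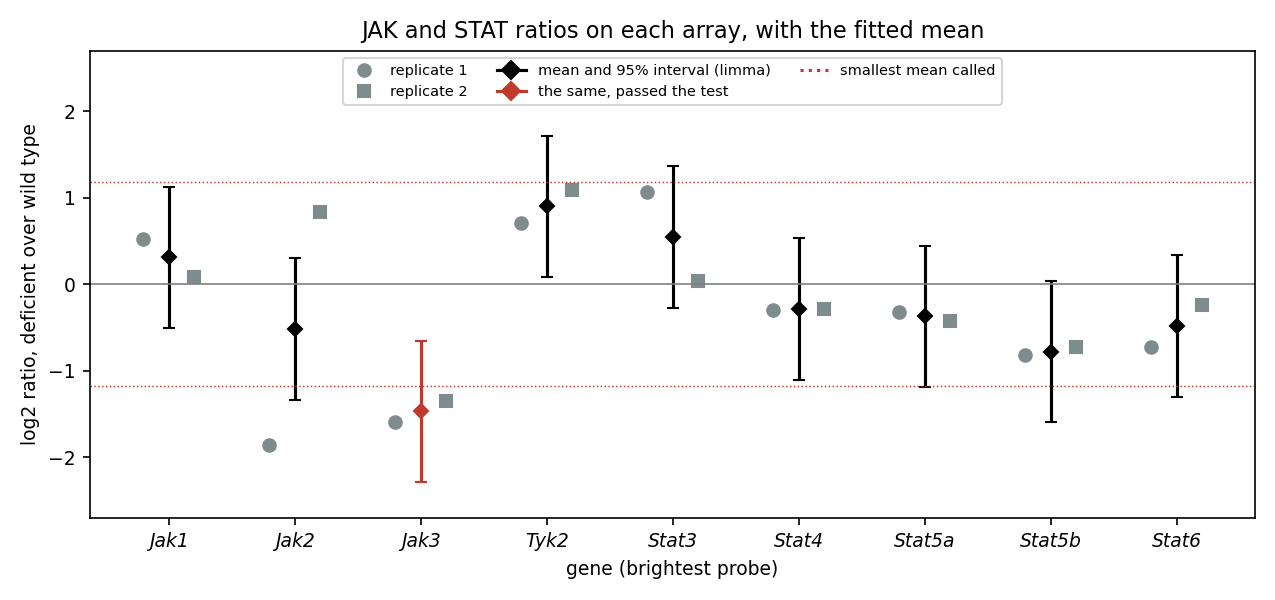
Log2 ratio of deficient over wild-type signal for each gene's brightest probe on replicate 1 (grey circles) and replicate 2 (grey squares), with the mean and its 95% interval from limma (diamonds; red where the test was passed) and dotted lines at the smallest mean called, 1.18. Jak3, drawn at its measured value although deficient signal did not clear background, lies below the lower line, and the array values of Jak2 lie on opposite sides of 0.

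Jak3 encodes the kinase that binds the common gamma chain, the receptor subunit shared by the receptors for interleukin-2, interleukin-7 and interleukin-15 among others, and is made mostly in lymphoid and other blood cells. Its brighter probe (NM_010589, chromosome 8, 74619175 to 74619234, build NCBI36) had intensities of 1128 and 1060 in deficient cells on replicates 1 and 2, and 1041 and 1223 in wild-type cells. The dyes have different backgrounds: these intensities were 1.16 and 1.5 times the negative control median in the deficient channel, and 3.19 and 3.01 times in the wild-type channel. Deficient RNA did not clear background on any array and wild-type RNA did on both. Over all genes tested the median intensity was 1498 and 1610 in deficient cells and 826 and 955 in wild-type cells. The multiples of the negative controls thus differ between the dyes for genes in general, and the gap here is not read as a group difference. With the processing used here the wild-type level was 2.77-fold higher, which is the measured mean log2 ratio of -1.47 (95% interval -2.29 to -0.65). That mean passed against 0 (limma adjusted p = 0.00924). The 2.77-fold value is no lower limit, since other background corrections gave smaller and larger ratios, and it remains subject to dye bias. The measured log2 ratio of -1.59 and -1.35 has no fixed size, since it rests on how background was treated. A second Jak3 probe, with coordinates 74615916 to 74616241, gave -1.12 and -0.63, and its deficient signal was well above background on replicate 2 alone. Both probes thus lay below 0 on both arrays, the second nearer to 0 by 0.47 and 0.72, and it did not pass when every probe was fitted (adjusted p = 0.189 over probes, against 0.0273 for the brighter one). Jak3 lost its call without the filter on dim probes (adjusted p = 0.244), and could not be tested where both groups had to clear background. It also lost it without background correction (-0.85, adjusted p = 0.0591) and with the scanner program's own ratios (-2.84, adjusted p = 0.0514). It passed in 5 of the 11 alternatives that measured it, with a ratio below 0 in each of the 11. T-cell markers had a median of -1.20 in the same samples.

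Tyk2 encodes the kinase of the interleukin-12 and type I interferon receptors and had 1 probe (NM_018793, chromosome 9, 20855279 to 20855338). Its intensity was 1758 and 2173 in deficient cells and 706 and 754 in wild-type cells, well above background in both groups on both arrays. Relative to the negative controls the deficient signal was 1.82 and 3.07 times and the wild-type signal 2.16 and 1.86 times. The dyes differ on this scale for genes in general, so these multiples are not read as a comparison of the groups. After dye normalization the log2 ratio was 0.71 and 1.09 (mean 0.90 ± 0.27, 95% interval 0.08 to 1.72), the highest of the 9. Its unadjusted p was 0.0310 and it did not pass over all genes (adjusted p = 0.169). It passed in 1 of 12 alternatives, the one limited to genes well above background in both groups (adjusted p = 0.0392).

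Jak2 encodes a kinase of the receptors for interferon-gamma, interleukin-12, GM-CSF and erythropoietin, and the arrays disagreed on it. Its brighter probe (NM_008413, chromosome 19, 29377868 to 29377927) had 1112 and 3848 in deficient cells and 1362 and 1553 in wild-type cells. Wild-type signal was alike on both arrays. The deficient signal was 1.15 times the negative controls and not well above background on replicate 1, and 5.44 times and well above it on replicate 2. The log2 ratio was -1.86 and 0.83 (mean -0.52 ± 1.91), with no direction shared by the arrays (adjusted p = 0.489). Dendritic-cell (1.15 and 2.44), B-cell (1.25 and 2.34) and erythroid (0.74 and 2.34) marker medians were higher on replicate 2 than on replicate 1. Neutrophil (0.86 and 1.85) and plasma-cell (0.28 and 1.56) medians were higher there too. NK-cell (0.73 and 0.99) and macrophage (3.17 and 3.23) medians moved less, and the T-cell median was lower (-1.11 and -1.43). The part of these cells in the Jak2 values was not tested. Summed signals were 8114 and 16852 in deficient and 3941 and 3301 in wild-type cells for dendritic-cell markers. For erythroid markers they were 277749 and 282974 in deficient and 126489 and 49428 in wild-type cells, so that sum moved mainly in wild-type cells. Deficient sums were lower on replicate 2 for macrophage (292572 and 224547) and neutrophil markers (87217 and 52741). Flt3, Siglech, Zbtb46 and Klf1 were too dim to be tested. A second Jak2 probe was not well above background in either group and was left out.

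Jak1 encodes the kinase that partners JAK3 on gamma-chain receptors and TYK2 or JAK2 on interferon receptors. Its brightest probe (NM_146145, chromosome 4, 100651121 to 100651180) had 10452 and 21697 in deficient cells and 12744 and 15197 in wild-type cells, and a log2 ratio of 0.52 and 0.09 (mean 0.31 ± 0.30, adjusted p = 0.701). A second probe starting 700 bases away gave -0.34 and 0.04. The 2 probes differed by 0.86 on replicate 1 and by 0.05 on replicate 2, so the sign of Jak1 on replicate 1 depends on the probe. A further, dim probe made from a cDNA clone (AK029232), whose coordinates run against the other Jak1 probes, gave -1.61 and -0.47. Averaging the probes put Jak1 at -0.29, and centring each array on its median in place of loess put it at -0.66, where the median of all genes was -0.41.

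**Figure D2:**
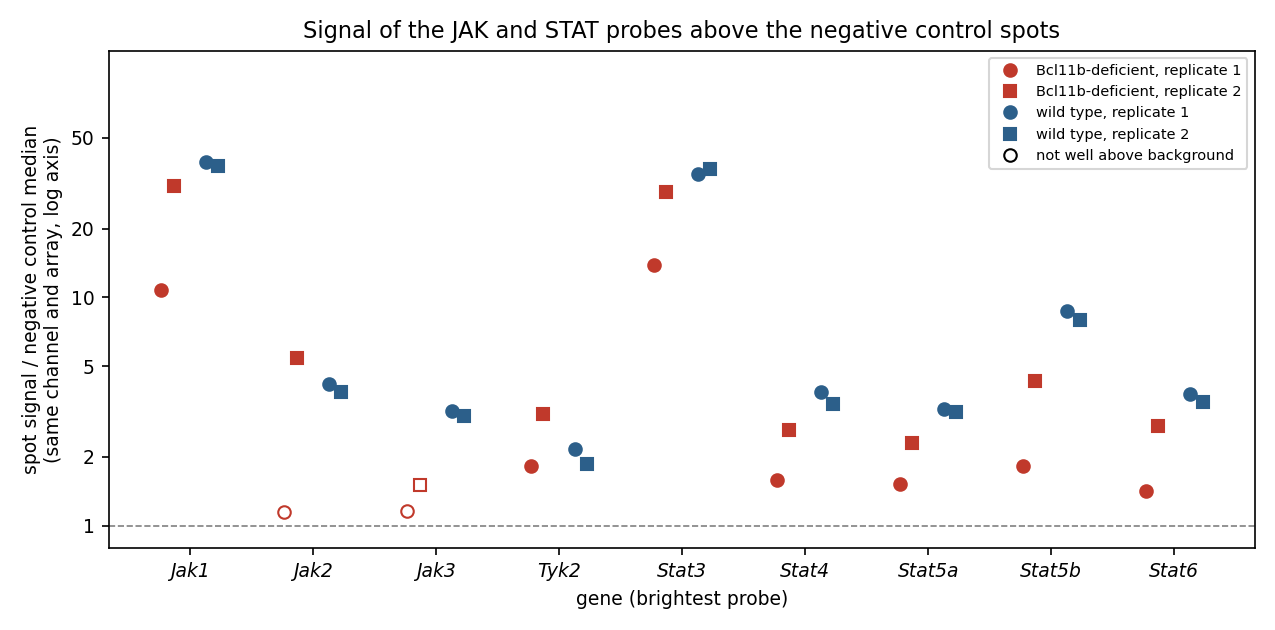
Spot intensity of each gene's brightest probe over the median of the negative control spots of the same channel and array (log axis), in deficient cells (red, left) and wild-type cells (blue, right); circles are replicate 1, squares replicate 2, and open symbols spots not well above background. Jak3 in deficient cells lies at 1.16 and 1.5 times the controls; the dyes differ in brightness, so the gap between colours is not the ratio, and heights are not comparable between genes.

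The STAT genes showed no call. Stat5a and Stat5b, near-identical paralogs that carry interleukin-2 and interleukin-7 signals, lay below 0 on both arrays. Stat5b (NM_011489, chromosome 11, 100596875 to 100596934) had 1768 and 3033 in deficient cells and 2845 and 3246 in wild-type cells, which is 1.83 and 4.29 times the negative controls in deficient cells and 8.71 and 7.99 times in wild-type cells. Its log2 ratio was -0.82 and -0.73 (mean -0.78 ± 0.06, 95% interval -1.59 to 0.04, adjusted p = 0.257). It was below 0 in all 12 alternatives (-1.49 to -0.65), and passed in 0 of them (lowest adjusted p 0.0784). A second Stat5b probe from a cDNA clone (AK088966) gave -1.49 and -0.73. The deficient signal there stayed near background on both arrays. With the processing used here the wild-type signal was at least 1.49-fold higher, a bound that holds for that background correction alone. It leaves out sampling error and remains subject to dye bias, and the probe was kept only through its wild-type signal. The ratio of this probe did not pass (limma adjusted p = 0.0967 over probes). The last Stat5b probe was dim in both groups.

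Stat5a (NM_011488, chromosome 11, 100700920 to 100700979) had 1468 and 1629 in deficient cells and 1061 and 1283 in wild-type cells. Its log2 ratio was -0.32 and -0.43 (mean -0.37 ± 0.08, 95% interval -1.19 to 0.44, adjusted p = 0.628). The sequences of the probes were not used here, so cross-hybridization between the Stat5 paralogs was not assessed. Stat5b, Stat5a and Stat3 lie side by side on chromosome 11, with 0 protein-coding genes between neighbours in RefSeq, and Stat3, the outermost, had the opposite sign.

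Stat3, which carries interleukin-6, interleukin-10 and interleukin-21 signals, was printed at 10 spots (NM_213659, chromosome 11, 100704374 to 100704433), so the spread between spots of an array can be given. Averaged over spots it had 13329 and 20393 in deficient cells and 11297 and 14800 in wild-type cells. The log2 ratio was 1.07 on replicate 1, where the 10 spots ran from 1.00 to 1.12 (spot SD 0.05), and 0.04 on replicate 2, where they ran from -0.01 to 0.10 (spot SD 0.04). The spots of the arrays did not overlap. Over 93 tested probes with at least 10 spots, the median spot SD was 0.12 and 0.07. Spot spread leaves out the error of labelling, hybridization and normalization, which was not measured. The mean was 0.55 ± 0.73 (adjusted p = 0.457), and it was -0.41 with median centring in place of loess, equal to the all-gene median there. The other Stat3 probe was dim in both groups.

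Stat6, the interleukin-4 and interleukin-13 factor, gave different signs by probe. Its brightest probe (NM_009284, chromosome 10, 127063582 to 127063641) had 1373 and 1940 in deficient cells and 1236 and 1416 in wild-type cells, with a log2 ratio of -0.73 and -0.24 (mean -0.48 ± 0.35, adjusted p = 0.519). A probe starting 352 bases away and printed at 10 spots, of which 9 were usable on each array, gave 0.06 (spots -0.15 to 0.24) and 0.31 (0.19 to 0.41). The probes were apart by 0.79 and 0.55, beside a spot SD of 0.13 and 0.08 for the second. The last Stat6 probe was dim in both groups.

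Stat4, the interleukin-12 factor that promotes interferon-gamma production, had the smallest spread. Its probe (NM_011487, chromosome 1, 52051503 to 52051562) had 1536 and 1860 in deficient cells and 1250 and 1387 in wild-type cells, and a log2 ratio of -0.30 and -0.29 (mean -0.29 ± 0.01, adjusted p = 0.715). The 95% interval of -1.11 to 0.53 still spans a decrease of more than 2-fold. Over 12 alternatives Stat4 ran from -0.75 to -0.18.

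**Figure D3:**
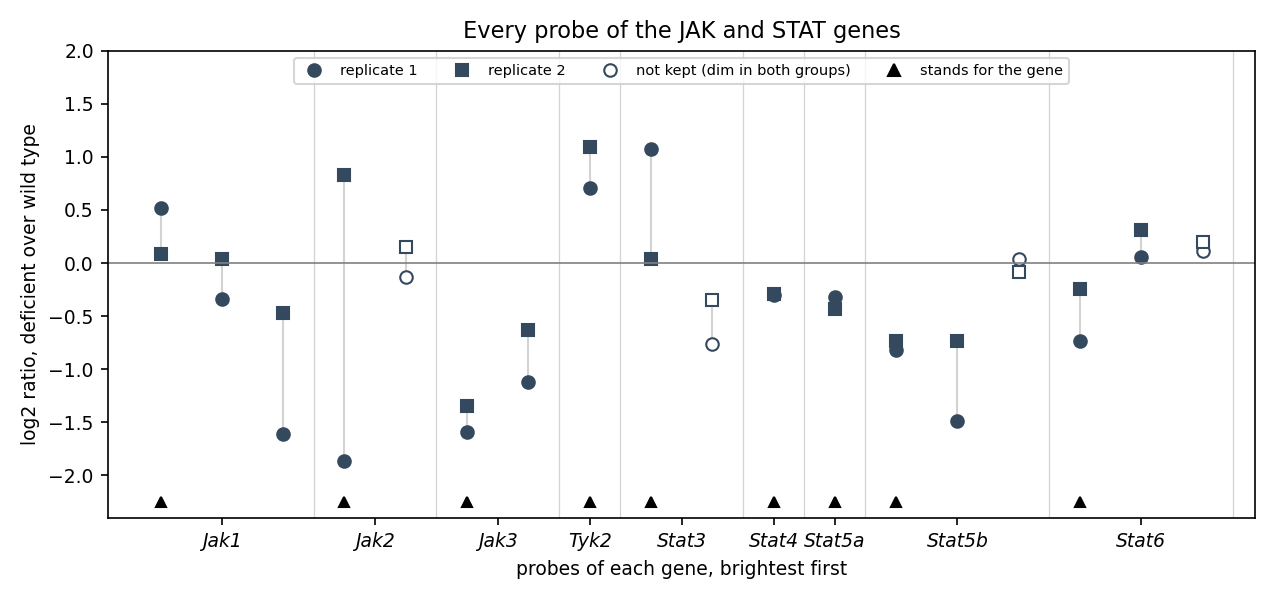
Log2 ratio (deficient over wild type) of each of the 18 probes of the 9 genes on replicate 1 (circles) and replicate 2 (squares), grouped by gene with the brightest probe first; open symbols are the 4 probes dim in both groups, and triangles mark the probe that stands for the gene. Both Jak3 probes lie below 0, and the Jak1 and Stat6 probes lie on both sides of 0.

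Genes around the JAK and STAT proteins were described from lists of their roles. Of 35 receptor chains that use JAKs 22 were measured, of which 4 rose and 4 fell, beside 3.74% and 5.95% of all genes tested. The list's median was 0.31, and 14 chains lay above 0. The chains that fell were the common gamma chain Il2rg, to which JAK3 binds (-1.86 and -0.89, mean -1.38 ± 0.69, adjusted p = 0.0171), Il27ra, a chain of the interleukin-27 receptor (-1.34 and -1.42, adjusted p = 0.0163), Il6st, which encodes gp130 (-1.69 and -1.04, adjusted p = 0.0183), and the interferon receptor chain Ifnar1 (-2.11 and -0.59, adjusted p = 0.0197). For Il2rg, Il6st and Ifnar1 the deficient signal cleared background on 1 array alone. These genes entered the test only through their wild-type signal, the group where they are high. Their calls describe the difference and support nothing further, and the genes could not be tested where both groups had to clear background. Il2rg passed in 5, Il6st in 7 and Ifnar1 in 4 of 11 alternatives, and Il27ra in 8 of 12. The chains that rose were Csf2rb and Csf2ra, the GM-CSF receptor of myeloid cells (0.90 and 2.31, adjusted p = 0.00358; 0.41 and 2.14, adjusted p = 0.0298), the interleukin-10 receptor Il10ra (0.93 and 2.06, adjusted p = 0.00781) and the interferon-gamma receptor Ifngr1 (1.24 and 1.34, adjusted p = 0.0279). Csf2rb and Il10ra each passed in 7, Ifngr1 in 5 and Csf2ra in 4 of 12 alternatives. With median centring the ratio was 1.15 for Csf2rb, 0.81 for Il10ra, 0.37 for Ifngr1 and 0.54 for Csf2ra, and none of these 4 passed there. Macrophage markers had a median of 3.24 in the same samples. Other chains of gamma-chain receptors, picked after their values were seen, were Il2rb (0.67 and 1.11, adjusted p = 0.176), Il7r (-0.11 and 0.31, adjusted p = 0.907), Il15ra (0.53 and 0.13), Il21r (-0.80 and -0.12) and Il4ra (-0.44 and 0.97). None of these 5 passed, and Il7r and Il4ra changed sign between arrays.

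Of 19 inhibitors 14 were measured, 1 rose and 1 fell (median -0.21), counts close to the 3.74% and 5.95% of all genes tested. Socs3, which blocks gp130 receptors and is itself made in answer to STAT3, fell (-1.47 and -1.40, mean -1.44 ± 0.05, adjusted p = 0.0115; passed in 7 of 12 alternatives). Socs7 rose (1.59 and 0.81, adjusted p = 0.0452; passed in 5 of 12). Usp18 (-1.52 and 0.10), Pias2 (-0.94 and -0.43), Socs2 (0.44 and 0.89) and Ptprc, which encodes the phosphatase CD45 (-0.81 and -0.43), did not pass, with adjusted p from 0.306 to 0.394. Cish, an early STAT5 target, was too dim to be tested.

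Of 32 genes known as STAT targets 24 were measured, 1 rose and 3 fell (median 0.14), beside 3.74% and 5.95% of all genes tested. Besides Socs3, the growth regulator Myc (-1.71 and -1.42, adjusted p = 0.00475) and the cyclin Ccnd2 (-1.64 and -1.20, adjusted p = 0.0126) fell, each passing in 7 of 12 alternatives. Averaging a gene's probes put Myc at -0.83 (adjusted p = 0.211), so its call rests on its brightest probe. Irf8, which B cells and myeloid cells express, rose (1.66 and 2.42, adjusted p = 8.36e-05). It passed in 7 of 12 alternatives, with 1.17 under median centring (adjusted p = 0.196). Marker medians were 1.74 for B cells, 1.86 for dendritic cells and 3.24 for macrophages, and the part of these cells in the Irf8 values was not tested. Bcl6 (-0.01 and 1.70) and Il18r1 (0.40 and 0.97) did not pass. Of 21 cytokines only 4 were measured, of which Ebi3, a subunit of interleukin-27 and interleukin-35, rose (1.54 and 2.37, adjusted p = 1.97e-04; passed in 7 of 12 alternatives). Ifng (-1.64 and 0.45), Il27 (-0.77 and -0.21) and Il15 (0.31 and 0.13) did not pass.

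Stat2, a factor of type I interferon signalling, did not pass (0.53 and 0.69, adjusted p = 0.405). Of 12 adaptors and partners 10 were measured, with values from -0.67 for Crebbp to 0.60 for Pik3r1 and a median of -0.06. Sh2b2 (-0.62), Sh2b1 (-0.44), Grb2 (0.39) and Ep300 (0.31) lay between them. In limma 0 of the 10 were called, beside 9.69% of all genes tested that were called in either direction. An unadjusted p under 0.05 was found for 0 of the 10, beside 2179 of 9931 genes tested. With so few genes these counts are not read as a lack of change.

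Jak3, Bcl11b and the 14 genes of these lists that passed all lost their calls with the Feature Extraction ratios, with the deposited value table that holds the same ratios, without the filter on dim probes and with separate channels.

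**Figure D4:**
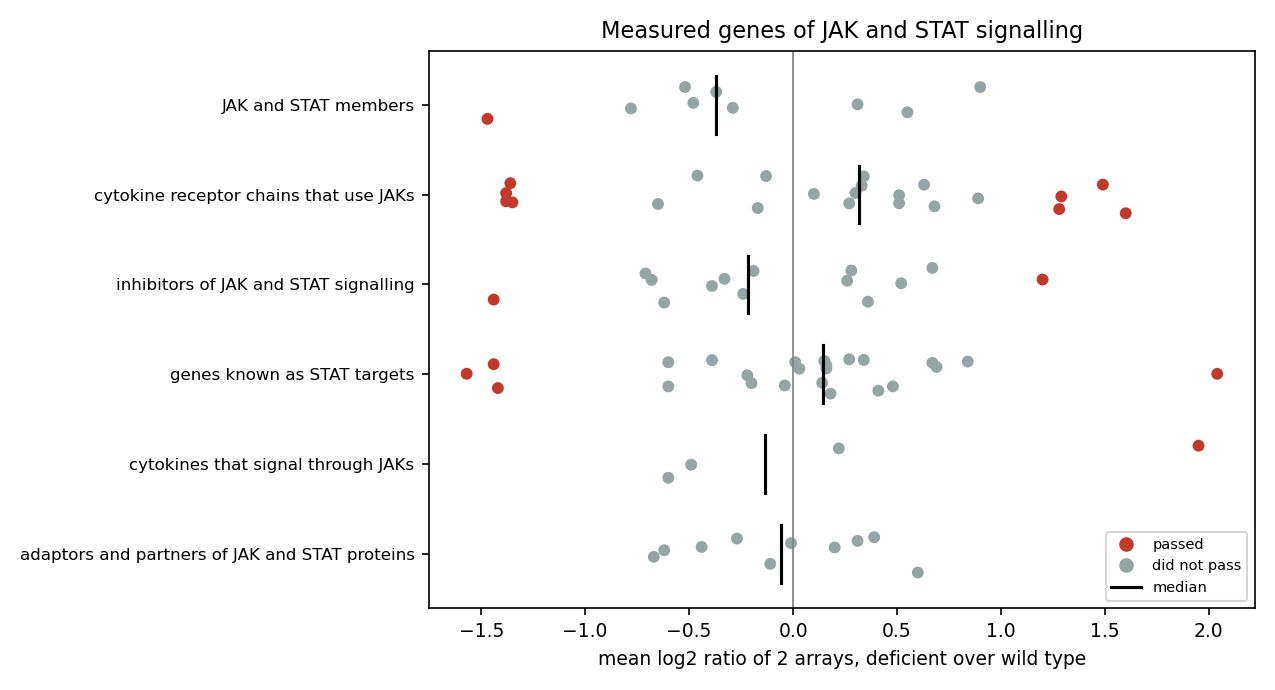
Mean log2 ratio (deficient over wild type, 2 arrays) of each measured gene in 6 lists around JAK and STAT signalling; red points passed the test, and black bars are list medians. Among the members Jak3 alone is red, and the receptor list holds 4 red points on each side.

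The GAS element was searched as TTCNNNGAA and, in the form STAT6 prefers, with 4 free letters in place of 3, whose fixed letters read the same on both strands; the motifs do not contain one another. RefSeq promoters (GRCm38.p6, 250 bases before to 50 after the start) were found for all 9 members (12 promoters) and for 11 of the 19 inhibitors (13 promoters). The members' promoters held 0 matches to either motif, against 8.3% and 6.95% of 32851 promoters with a match to each. Of the inhibitors, Cish and Socs3 held TTCNNNGAA. The promoters of Jak3 and Socs3 are shown because Jak3 was the member called lower and Socs3 the inhibitor that fell, and capitals mark the match, which in Socs3 begins at position -154 from the start. A match describes the letters alone.
Jak3, chr8:71676133-71676432, plus strand: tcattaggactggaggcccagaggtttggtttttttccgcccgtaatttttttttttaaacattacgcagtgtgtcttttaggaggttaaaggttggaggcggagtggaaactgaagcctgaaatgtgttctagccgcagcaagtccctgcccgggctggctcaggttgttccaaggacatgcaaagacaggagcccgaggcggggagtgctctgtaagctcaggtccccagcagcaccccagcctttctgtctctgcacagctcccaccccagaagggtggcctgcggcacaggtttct
Socs3, chr11:117969317-117969616, minus strand: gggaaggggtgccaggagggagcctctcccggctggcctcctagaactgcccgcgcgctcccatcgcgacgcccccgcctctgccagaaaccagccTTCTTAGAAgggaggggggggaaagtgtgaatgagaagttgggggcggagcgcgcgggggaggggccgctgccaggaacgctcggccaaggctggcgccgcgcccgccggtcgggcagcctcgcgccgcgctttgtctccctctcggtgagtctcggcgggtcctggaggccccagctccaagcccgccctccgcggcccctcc

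**Figure D5:**
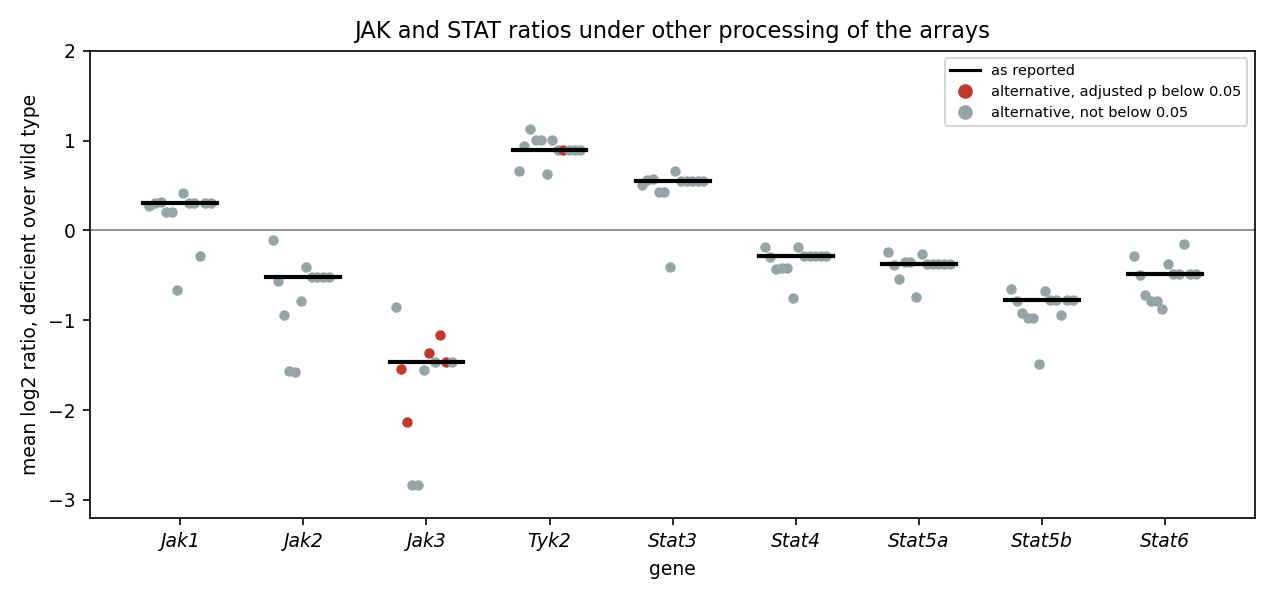
Mean log2 ratio (deficient over wild type) of each gene as reported (black bar) and under 11 or 12 other ways of processing the arrays (points; red where the adjusted p was below 0.05). Jak3 stays below 0 and passes in 5 of 11, Tyk2 passes in 1 of 12, and Jak1 and Stat3 have points on both sides of 0.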

How the data were processed

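The scanner files hold 2 kinds of intensity per channel, a spot's mean brightness and the median around it, which came from Agilent Feature Extraction 9.5.3.1 per the file headers and the submitters' processing notes. That program also wrote a dye-normalized log10 ratio of red over green, per the file headers, set to 0 at 32.4% and 36.9% of gene spots. The deposited value table holds this log10 ratio, within 0.00500 of the scanner files, with a median of 0 in each column. Probe coordinates are those of the array design (NCBI36, mm8), and no genome of that build was used, so exons were not assigned. Gene names were updated to RefSeq (GRCm38.p6) by accession for 24375 of 41174 probes and by symbol or synonym for 8727, the other 8072 keeping the name in the files. The 9 genes had 18 probes at 36 spots.

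Here, background was corrected with normexp (offset 50) in limma 3.58.1 (R 4.3.3), loess was applied to the ratios of each array, outlier spots were left out and spots of a probe averaged. Probes with a channel well above background on both arrays were kept (12624 probes, 14 of the 18), and the brightest stood for its gene. Ratios were tested against 0 with lmFit and eBayes, two-sided, with Benjamini-Hochberg adjustment over 9931 genes and a threshold of 0.05. With 2 arrays each gene has 1 residual degree of freedom, which limits the precision. The fit used 1 variance shared by all genes (0.349), so its calls disregard disagreement between the arrays of a gene. An exact permutation of signs could not go below p = 0.5 with 2 arrays. The labels call the arrays biological replicates. The procedure was tested on simulated data. It recovered 15% of genes set to differ by 1 on the log2 scale, 89.1% at 2 and 100% at 3. A gene that did not pass is thus not read as unchanged. Summed marker signals and bounds are from separate channels after loess and Aquantile. For a bound, the brighter group's mean is divided by the mean, over arrays, of whichever is larger: the dim probe's signal or the dimmest signal that cleared background. Alternatives were other background corrections, normalizations, filters, probe summaries and models, and each array left out.

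The text names all members and Bcl11b. Of each other list it names the genes that passed, filled up to 6 by smallest adjusted p, and of the cell markers up to 3 by brightness. The members and lists were chosen with earlier results of these data known. Some genes of these lists are not reported here.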

Additional observations from a re-analysis of the deposited data

How the results depend on the processing

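Aquantile leaves every ratio as it is, so it is not counted among the alternatives. The Feature Extraction ratios and the deposited value table hold the same ratios, yet both are counted. Several other alternatives keep the loess ratio of the brightest probe, so the tallies are not counts of separate checks. The count of lower genes among the 9 was 1 as reported and with 5 alternatives, in which Jak3 passed. It was 0 without background correction, with the Feature Extraction ratios, with the deposited value table, with median centring, without a filter on dim probes, with separate channels, and with both channels required above background, which leaves Jak3 and Jak2 out and tests 7 members. That last filter gave 1 higher gene, Tyk2. Over all genes, 371 were higher and 591 lower as reported (61.4% of calls lower). The counts were 50 and 65 with the Feature Extraction ratios or the deposited value table, 69 and 348 with median centring (83.5% lower), 285 and 173 without background correction (37.8% lower), 523 and 195 with both channels required (27.2% lower), and 537 and 563 after shifting both arrays to a gene median of 0 (51.2% lower). They were 0 and 0 without the filter (5109 genes at an unadjusted p under 0.05) and with separate channels (1987 genes). The median of all genes was -0.11 as reported, -0.41 with median centring, -0.24 with the Feature Extraction ratios and -0.20 with normexp on the negative control spots. The sign turned with median centring for Jak1 (-0.66), Stat3 (-0.41), Il15 (-0.04) and Grb2 (-0.53), and with the mean of a gene's probes for Jak1 (-0.29) and Pik3r1 (-0.16), and the cause was not tested. With normexp on the negative control spots Jak3 was -2.13 (adjusted p = 0.00683). Leaving out a replicate leaves 1 array, which gives values but no test. Jak3 was then -1.35 and -1.59, Tyk2 1.09 and 0.71, Stat3 0.04 and 1.07, and Jak2 0.83 and -1.86, without replicate 1 and without replicate 2 in that order. Of the 9 genes, Jak2 alone changed sign with the array kept. Signal over background limits both Jak3 probes, Jak2 and the cDNA-clone probe of Jak1 on replicate 1, the cDNA-clone probe of Stat5b and the 4 probes dim in both groups.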
